A study of Mus musculus with 5 samples.

Results

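Kinesins and cytoplasmic dynein are the motors that haul vesicles, organelles and RNA along microtubules, and they are described here at the level of splicing in mouse cortical neurons after knockdown of PQBP1. Kinesins mostly walk towards the growing ends of microtubules and so out along the axon, and dynein walks back towards the cell body. Each motor is built from a motor chain and from associated chains that choose cargo, and in neurons several of these chains are spliced in more than one form. PQBP1 is a nuclear protein that interacts with the splicing machinery, and mutations of the human gene cause an X-linked intellectual disability.

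The members are 6 genes of the 457 named in the authors' deposited table of alternative splicing targets. They were chosen from that table by gene name, and the table itself appears to have been selected by the authors' p-value (an inference, since every event with 2 junctions has one under 0.05), so the size and p of each event below are a description and support no test. Kif1a, Kif2a and Kifap3 encode kinesin subunits, Klc1 a kinesin light chain, and Dync1i1 and Dync1i2 the intermediate chains of dynein.

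The cells were cortical neurons of C57BL/6 embryos at E16.5, kept to day 5 in vitro. All had received lentivirus, with a non-targeting hairpin in 3 samples (mock knockdown, the control) and a hairpin against PQBP1 in 2 samples (knockdown). One hairpin per group is named in the labels, so an effect of that hairpin on other transcripts and an effect of PQBP1 loss cannot be told apart. The labels do not say whether the samples were separate cultures, so a p-value may rest on technical spread. PolyA RNA was sequenced, and the table gives for each splice junction a log2 fold of knockdown over control and a p-value. It has no value per sample and no gene levels, so neither the depth, the spread between replicates, the level of Pqbp1 nor neuronal markers could be checked, and the values below carry no SD.

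The junctions of an event have a donor or an acceptor in common and part at the other end. The log2 fold is read as the change in a junction's relative use within its event. For events with 2 junctions the folds also imply the share of each junction in both groups, if the shares add up to 100% (an inference, since no counts are given). The 6 genes held 26 junctions in 11 events, of which 8 events had 2 junctions. In 22 of the 26 junctions the authors' p was under 0.05, against 76.2% of the 1389 junctions of the table that have a p, with 11 of the 26 higher, against 37.8% of the 1389, and 11 lower, against 38.4%. In the 3 events with 3 or 4 junctions 6 of 10 junctions passed, against 42.4% in larger events of the table. Because the table appears to be selected by p, nothing is read from these counts.

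The sequences of the short alternative exons are shown first, because several changes below are in the inclusion or skipping of these stretches. They are coding strand bases, 5′ to 3′, from the GENCODE M21 transcripts on GRCm38 (mm10). Capitals mark the alternative exon, and lower case the adjoining bases of the exons spliced to it.
Kif1a 24-nt exon: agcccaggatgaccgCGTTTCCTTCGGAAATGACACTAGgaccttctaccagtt
Kif1a 27-nt exon: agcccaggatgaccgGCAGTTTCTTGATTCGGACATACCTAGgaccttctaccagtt
Kif2a exon: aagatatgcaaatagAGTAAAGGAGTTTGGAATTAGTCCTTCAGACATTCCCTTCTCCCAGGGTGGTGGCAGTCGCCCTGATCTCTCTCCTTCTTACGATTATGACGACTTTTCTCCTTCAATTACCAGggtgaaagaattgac
Dync1i1 exon: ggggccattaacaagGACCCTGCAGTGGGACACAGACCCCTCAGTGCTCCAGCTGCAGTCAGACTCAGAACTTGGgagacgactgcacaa
Dync1i2 exon: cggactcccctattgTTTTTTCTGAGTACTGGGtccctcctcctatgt
The lengths of these exons, 24, 27, 114, 60 and 18 nt, are all multiples of 3, and all are annotated as coding in full, so taking them up or leaving them out keeps the reading frame. For Dync1i2 this holds for the annotated 18-nt form, since only the downstream side of its exon was listed. Among the 219 cassette exons of the table (exons flanked by both neighbours in an annotated transcript, each counted once), 144 or 65.8% have such a length. The Kif1a exons are not among these 219. The Klc1 exons of 67 and 131 nt, shown further below, do not have such a length.

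Kif1a is a kinesin-3 motor that carries precursors of synaptic vesicles and dense-core vesicles down the axon. It had the smallest p of the 6 genes, in a choice between 2 very short exons on chromosome 1. After knockdown the 24-nt exon was used less, and the junction that skips both exons was used more. Both exons lie in the same gap of the coding sequence, after 1233 whole codons, between an exon of 106 nt and one of 115 nt. No annotated Kif1a transcript holds both.

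Seen from the upstream exon, the junction into the 24-nt exon (exon chr1:93026832-93026855, minus strand) had a log2 fold of -0.51 (p = 0.000691) in the authors' deposited table. The junction that skips both exons, an intron of 11110 nt, had a log2 fold of 0.27 (p = 0.00681) in the authors' deposited table. The junction into the 27-nt exon (chr1:93034546-93034572) stood at 0.33 (p = 0.340) in the authors' deposited table and did not pass. The 24-nt exon was therefore the low one of the 3 choices, and no change of the 27-nt exon could be called.

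The same choice was listed a second time from the downstream exon. There the junction out of the 24-nt exon had a log2 fold of -0.49 (p = 0.000975) and the skipping junction 0.25 (p = 0.0183), and the junction out of the 27-nt exon stood at 0.39 (p = 0.213), all in the authors' deposited table. Both readings share the skipping junction, so the second is not a separate measurement of it. With 3 junctions the shares are not fixed by the folds, but they are bounded. For the 24-nt exon the bounds were 41.1% to 45.9% of the upstream junctions in control and 28.8% to 32.2% in knockdown. From the downstream side they were 39.8% to 51.5% in control and 28.2% to 36.6% in knockdown. The shares of the 27-nt exon and of skipping were not usefully bounded (0% to 54.1% and 0% to 58.9% in control, upstream side).

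A further Kif1a event concerned an inner splice site further upstream in the gene. The inclusion junction of this event ends at a site that is not annotated, 24 nt inside an annotated exon of 279 nt (chr1:93051403-93051681, minus strand). Capitals here mark the 24 bases of that exon that the site leaves out, lower case the end of the preceding exon and the first bases after the site.
Kif1a exon with inner site: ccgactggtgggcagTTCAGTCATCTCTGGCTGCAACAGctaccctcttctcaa
The left-out bases end in AG, the letters that close most introns. This junction stood at a log2 fold of -1.78 in the authors' deposited table, and the one that skips the exon at 0.06 (p = 0.0117). The ratio of this inner-site junction to skipping was thus 0.278 times that of control, while its implied share within the event went only from 5.96% to 1.73%. No junction into the annotated start of the 279-nt exon is in the table used here, so inclusion of that exon was not measured. The other end of the exon that begins at the inner site has no event either, so its length is not known.

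Kif2a belongs to the kinesin-13 family, which does not walk but takes microtubules apart, and in neurons it restrains the growth of axon branches. Its exon of 114 nt on chromosome 13 (chr13:106969704-106969817, minus strand) was included more after knockdown. The exon follows 547 whole codons, and the annotated forms with and without it have 743 and 705 codons. In the authors' deposited table the log2 folds on its downstream side were 0.22 (inclusion) and -1.11 (skipping), with p = 0.00258. On its upstream side the values were 0.26 and -0.99 (p = 0.00561) in the authors' deposited table.

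These folds correspond to inclusion ratios 2.51 and 2.39 times that of control. The implied inclusion went from 76.8% to 89.3% read from the downstream side and from 71.3% to 85.6% read from the upstream side. The 2 readings of control inclusion differed by 5.51 percentage points, which gives an idea of how closely such shares can be read. Over the 52 cassette exons of the table listed from both sides, this difference had a median of 1.78 points, and all 52 had the same direction from both sides. Each such pair shares its skipping junction, which goes far to fix that direction, because the 2 folds of an event always have opposite signs.

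Kifap3 encodes the associated subunit KAP3, which joins the motor chains of kinesin-2 into a trimer and links them to cargo. Its alternative exon of 66 nt on chromosome 1 (chr1:163912072-163912137, plus strand) is the last but one of 21 and was included less after knockdown. The exon brings its own stop codon, so a transcript with it is annotated with 772 codons and one without it, which goes on into the last exon, with 793. In the next line capitals mark the coding bases of this exon with its stop codon, and its remaining bases are not shown.
Kifap3 exon: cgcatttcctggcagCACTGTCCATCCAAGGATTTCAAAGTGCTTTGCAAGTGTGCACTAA
On the upstream side inclusion had a log2 fold of -0.37 and skipping 0.22 (p = 0.0145) in the authors' deposited table. On the downstream side the values were -0.30 and 0.27 (p = 0.0387) in the authors' deposited table. The form with the exon was the lower one in knockdown from both sides, with ratios 0.662 and 0.676 times that of control.

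The implied inclusion of the Kifap3 exon went from 42.7% to 33.1% upstream and from 52.0% to 42.3% downstream. The 2 readings of control inclusion differed by 9.28 points, about as much as the implied change itself (9.66 and 9.72 points). This is the exon with the most even use among the 4 cassette exons of these genes, and its ratio change was small for the table. Of the 408 events with 2 junctions, 394 and 399 had a larger change of the ratio than the 2 Kifap3 events.

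**Figure D1:**
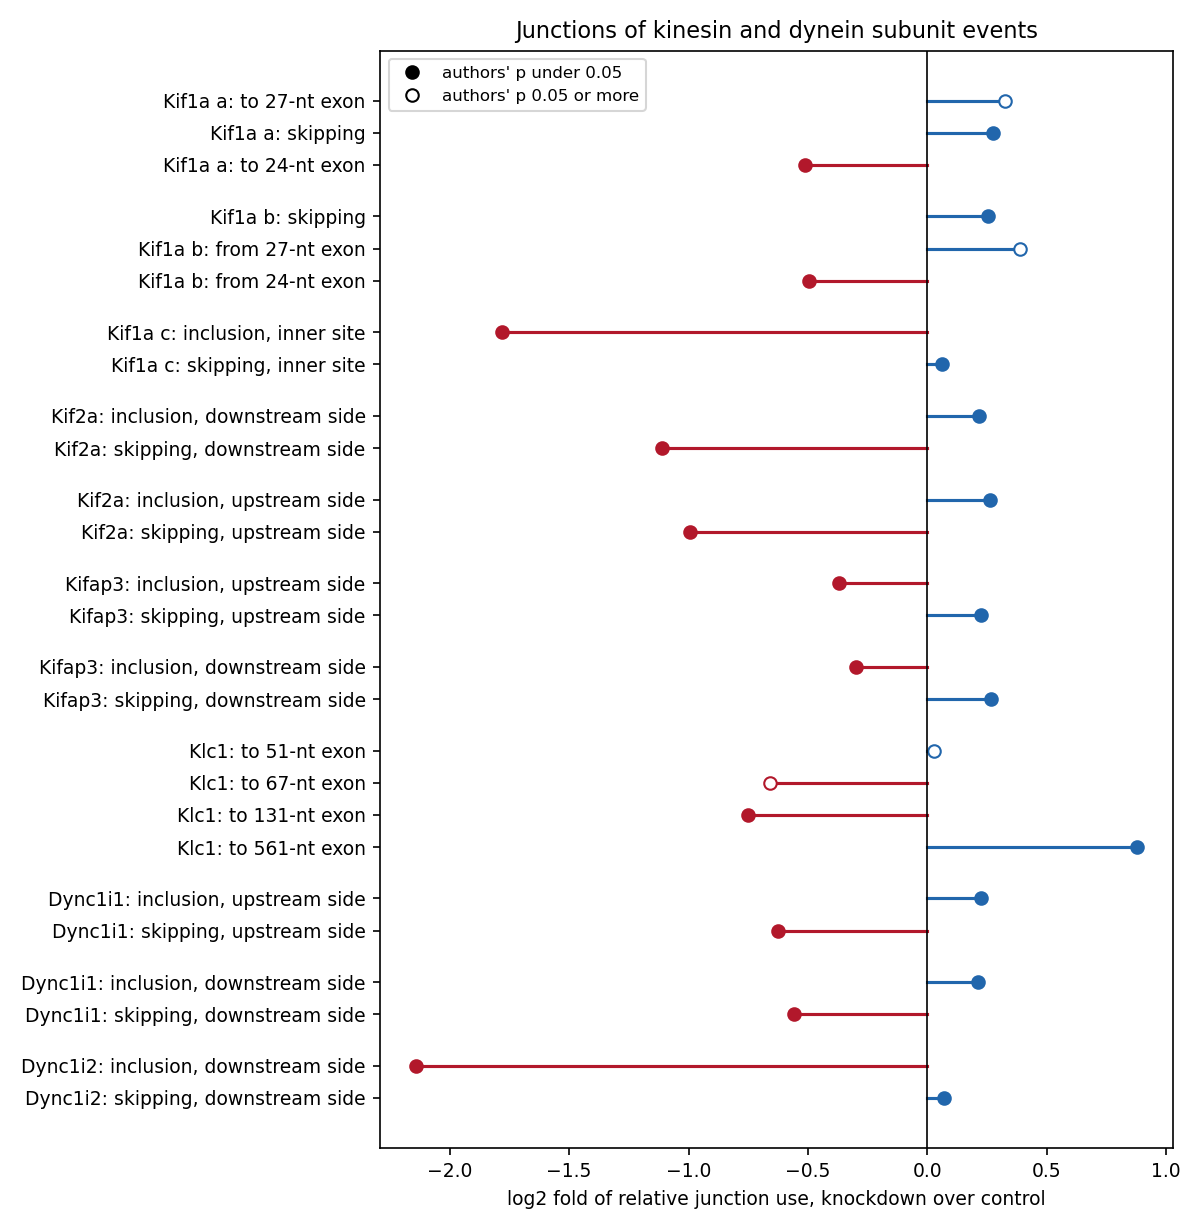
Log2 fold of relative use (knockdown over control, horizontal axis) of each of the 26 junctions in the authors' deposited table, grouped by event; filled points have a p under 0.05 and blue is higher, red lower in knockdown. Kif1a a and b are the choice between the 24-nt and 27-nt exons read from the upstream and downstream exon. Kif1a c is the event with the inner site, whose inclusion junction at -1.78 and that of Dync1i2 at -2.14 are the lowest points.

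Klc1 is a light chain of kinesin-1, which binds cargo adaptors, and its C-terminal end differs between splice forms. One event was listed, on chromosome 12 (plus strand), with 4 junctions that leave the same donor at the end of a 135-nt exon (chr12:111789325-111789459) and enter 4 different exons. The donor is the inner one of that exon, 27 nt before the end of its annotated 162-nt form. The 4 continuations are shown because each gives another end of the protein. Lower case is the end of the 135-nt exon, and capitals are coding bases of the exon that follows, up to its stop codon where it has one, except for the 131-nt exon, where the last bases in lower case belong to the exon after it.
Klc1 51-nt exon: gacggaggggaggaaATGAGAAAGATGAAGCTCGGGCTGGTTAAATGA
Klc1 561-nt exon: gacggaggggaggaaGCCTAG
Klc1 131-nt exon: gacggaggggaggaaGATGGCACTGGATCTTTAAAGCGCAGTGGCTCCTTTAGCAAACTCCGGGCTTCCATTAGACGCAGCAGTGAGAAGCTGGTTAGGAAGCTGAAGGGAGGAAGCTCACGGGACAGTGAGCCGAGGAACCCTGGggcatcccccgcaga
Klc1 67-nt exon: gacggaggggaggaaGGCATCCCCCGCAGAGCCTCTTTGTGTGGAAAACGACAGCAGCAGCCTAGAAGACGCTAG

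After knockdown, splicing from this inner Klc1 donor moved towards the 561-nt exon, which ends the protein after 1 further codon. It moved away from the 131-nt exon. In the authors' deposited table the junction into the 561-nt exon (chr12:111794337-111794897) had a log2 fold of 0.88 (p = 0.00186). The junction into the 131-nt exon (chr12:111795548-111795678) had a log2 fold of -0.75 (p = 0.00846) in the authors' deposited table. The junction into the 67-nt exon stood at -0.66 (p = 0.218) and that into the 51-nt exon at 0.03 (p = 0.825) in the authors' deposited table, and neither passed.

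The annotated transcript that ends in the 561-nt exon has 542 codons. The transcript with the 162-nt form, the 131-nt and the 67-nt exons has 616. The 131-nt and 67-nt exons have together 198 nt, a multiple of 3, though neither length is one by itself. The junctions from this donor into the 51-nt and 131-nt exons are not annotated, since the annotated transcripts reach those exons from the 162-nt form or, for the 131-nt exon, also from a 138-nt form with the same end. Shares are loosely bounded here: the 561-nt exon took at most 32.6% of the junctions from this donor in control and at most 60.0% in knockdown. Junctions from the donor of the 162-nt form are in no event of the table used here, so a shift of Klc1 as a whole was not tested.

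**Figure D2:**
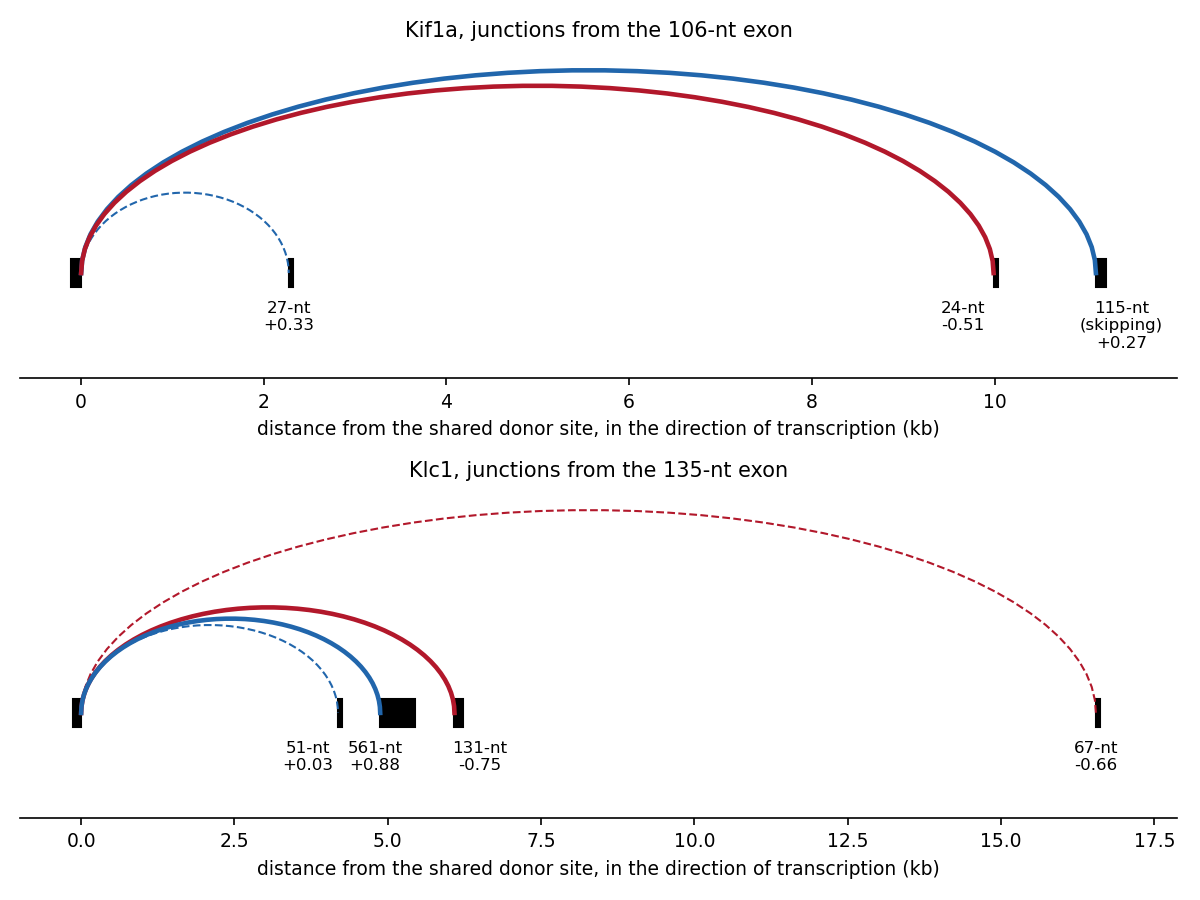
Maps of the Kif1a event read from its upstream exon (top) and of the Klc1 event (bottom), with the distance from the shared donor site in kb on the horizontal axis; black boxes are exons (the smallest drawn wider than scale), arcs are junctions, blue higher and red lower in knockdown, and dashed arcs did not pass. Numbers are the authors' log2 folds: -0.51 for the Kif1a 24-nt exon, and 0.88 and -0.75 for the Klc1 561-nt and 131-nt exons.

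Dync1i1 and Dync1i2 encode the intermediate chains of cytoplasmic dynein, which hold the dynactin complex with their N-terminal part and the dynein heavy chain with their C-terminal part. Dync1i1 is mostly neuronal and Dync1i2 is made in most cells. Each gene had a short exon of the N-terminal part listed, and the exons are different ones that moved in opposite directions. The exon of Dync1i1 was included more after knockdown and that of Dync1i2 less.

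The Dync1i1 exon of 60 nt on chromosome 6 (chr6:5784439-5784498, plus strand) follows 104 whole codons. On the upstream side inclusion had a log2 fold of 0.23 and skipping -0.63 (p = 0.0103) in the authors' deposited table. On the downstream side the values were 0.21 and -0.56 (p = 0.0218) in the authors' deposited table. Inclusion was thus higher from both sides, with ratios 1.81 and 1.71 times that of control. The implied inclusion went from 67.4% to 78.9% and from 66.9% to 77.6%. The annotated forms with and without this exon have 628 and 608 codons.

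The Dync1i2 exon of 18 nt on chromosome 2 (chr2:71227827-71227844, plus strand) follows 75 whole codons. It was listed from the downstream side only, and the authors' deposited table has log2 folds there of -2.14 (inclusion) and 0.07 (skipping), with p = 0.0315. The ratio was 0.216 times that of control, and the implied share of inclusion went from 6.12% to 1.39%. A non-coding transcript has an exon of 94 nt with the same end, so the length of 18 nt is the shorter of 2 annotated ones and is not fixed by the table.

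**Figure D3:**
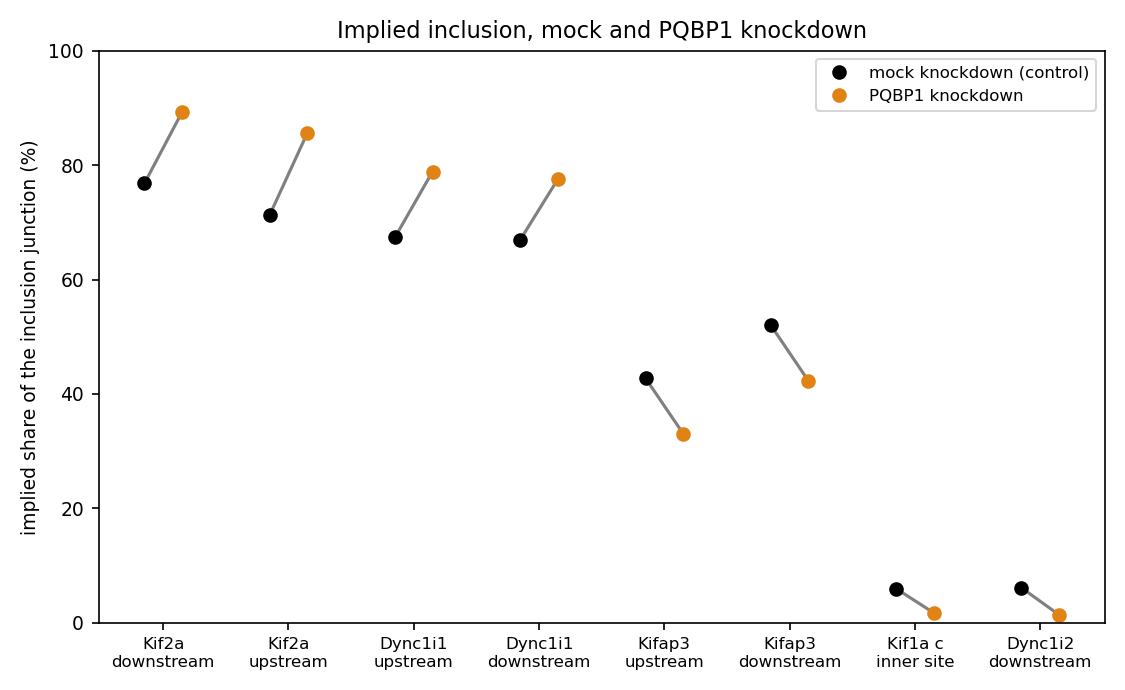
Share of the inclusion junction in percent (vertical axis) implied by the authors' folds in mock knockdown (black) and PQBP1 knockdown (orange) for the 8 events with 2 junctions, from each listed side of the exon; no error is available. Kif2a and Dync1i1 exons go up (76.8% to 89.3% for Kif2a, downstream), the Kifap3 exon goes down, and the rare Kif1a and Dync1i2 inclusion junctions start near 6% and go to 1.73% and 1.39%.

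The 2 dynein genes share their exon plan, which makes the difference easier to see. From the fourth to the sixth exon of Dync1i1 the lengths are 91, 60 and 116 nt, and in Dync1i2 the exons of 91, 60 and 116 nt follow the 18-nt exon. The 60-nt exons of the 2 genes have 46 of 60 bases in common (76.7%), against 70.3% for the preceding 91-nt and 59.5% for the following 116-nt exons. Further along, the pairs of 114 and 141 nt and the first pair of 126 nt are more alike (82.5%, 79.4% and 77.8%). The later pair of 126 nt is less alike (64.3%). The 60-nt pair thus does not stand out in the genes. The 60-nt exon of Dync1i2 (chr2:71233649-71233708) is also left out in some annotated transcripts, but no junction of it is in the table used here. Whether it changed like that of Dync1i1 was not tested.

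**Figure D4:**
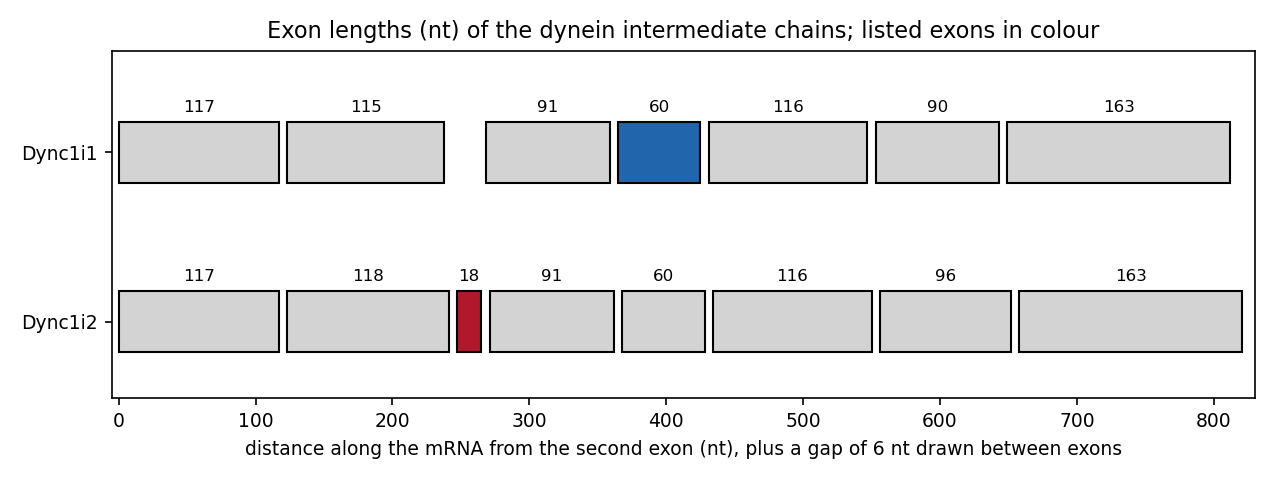
Exons 2 to 8 of Dync1i1 (top) and 2 to 9 of Dync1i2 (bottom), with widths to scale in nt along the mRNA and each length above its box. Later exons are not drawn, and a space is left in Dync1i1 where Dync1i2 has its 18-nt exon. The listed exons are coloured, blue for the 60-nt exon of Dync1i1 (more included in knockdown) and red for the 18-nt exon of Dync1i2 (less included).

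Across the 8 events with 2 junctions, 4 moved towards the nearer junction and 4 away from it, so 50% had the nearer junction lower, against 57.1% of all 408 events of this kind. With each exon counted once it was 3 lower of 5. For the 7 cassette exon events alone, inclusion was lower in 3, against 62.9% of the 272 cassette exon events of the table. The kinesin and dynein exons thus had no common direction. All 408 events, 100%, have an authors' p under 0.05. The median size of the change of the ratio was 1.06 on the log2 scale for the 8 events, beside 1.36 for all 408. The median size of the implied change in share was 10.2 percentage points, beside 12.9.

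The 2 events with the largest change of the ratio among the 8 had the smallest implied changes of share. The Dync1i2 event had a larger change of the ratio than 94.9% of the 408 events or the same, yet its implied change of share, -4.73 percentage points, was as large as or larger than only 4.41% of them. The Kif1a event with the inner site stood at 79.7% by ratio and at 2.70% by share. Ratio and share come from the same 2 folds, and a falling junction cannot lose more than its control share. That share was 6.12% in Dync1i2 and 5.96% in Kif1a, so their low places by share follow from it. In Kif2a the 2 scales gave similar places, 47.3% and 47.1% on the downstream side. The Kifap3 exon went the other way, at 3.43% by ratio and 27.2% by share on the upstream side.

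**Figure D5:**
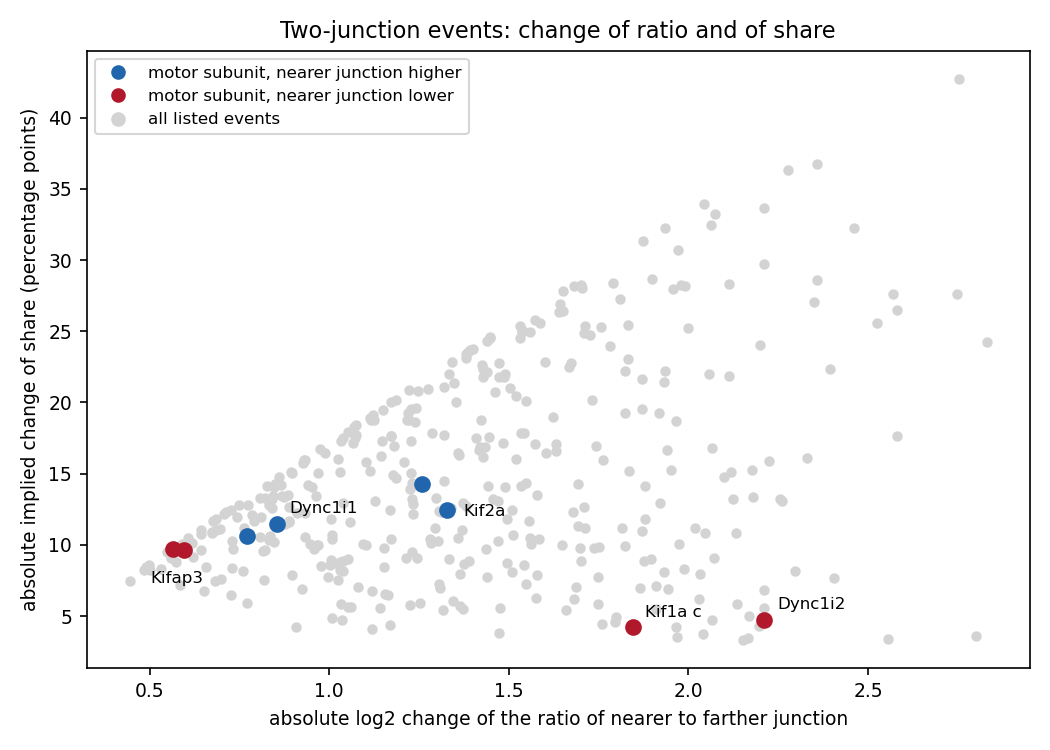
Each of the 408 events with 2 junctions by the absolute log2 change of the ratio of nearer to farther junction (horizontal axis) and the absolute implied change of share in percentage points (vertical axis); grey points are all events, blue and red the motor subunits with the nearer junction higher or lower. Dync1i2 and Kif1a c lie far right and low (4.73 and 4.23 points), and Kif2a, with the largest share changes of the group, lies at 12.5 and 14.3 points.

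The exons themselves were of several kinds. Among the 219 cassette exons the median length was 90 nt, the Dync1i2 exon was longer than or as long as 3.65%, and the Kif2a exon, at 114 nt, was longer than or as long as 68.0%. GC content was 38.9% in the Dync1i2 exon, 46.5% in Kif2a, 48.5% in Kifap3 and 60.0% in Dync1i1, beside a median of 51.5% for all. The intron before the exon was long in all 4, with 4677 nt in Kif2a, 8408 nt in Dync1i2, 14647 nt in Dync1i1 and 23766 nt in Kifap3, beside a median of 1709 nt. The introns after the exon, from 755 nt in Dync1i2 to 16276 nt in Dync1i1, lay on both sides of the median of 1385 nt. These are descriptions of 4 exons, with no test, and those of Dync1i2 are for its annotated 18-nt form.

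The wider list of motor subunits, dynactin and cargo adaptors had 121 genes in the gene models, of which 14 had an event in the table used here, the 6 genes above and 8 others. The list had 14 events with 2 junctions, from 10 genes, and 8 of them had the nearer junction lower, close to the 57.1% of the table. In the other genes it was 4 of 6 events, from 5 genes. Exons listed from both sides are counted from each, among them an exon of Clstn1. The members of the dynein and dynactin complexes among them were Dctn5 and Dync1li2. In Dctn5, a subunit of dynactin, the log2 folds in the authors' deposited table were -0.12 for the nearer and 1.45 for the farther junction (p = 0.0338). In Dync1li2, a light intermediate chain of dynein, 1 of 3 junctions passed, with a log2 fold of 1.64 (p = 0.0149) in the authors' deposited table.

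Among the adaptors of kinesin-1, Mapk8ip1, the scaffold JIP1, had the nearer junction at a log2 fold of 0.89 and the farther at -0.14 (p = 0.0171) in the authors' deposited table. Clstn1, the calsyntenin that binds Klc1, left out an exon more often. Its skipping junction, which both sides share, had log2 folds of 0.84 (p = 0.0383) and 0.93 (p = 0.0258) in the authors' deposited table. The inclusion junctions stood at -0.07 and -0.08 in the authors' deposited table. The implied inclusion went from 94.7% to 90.5% and from 94.6% to 89.7%. In Kidins220, a neurotrophin receptor scaffold carried by kinesin-1, an exon was included less, with the inclusion junction at a log2 fold of -1.19 and the skipping one at 0.12 in the authors' deposited table (p = 0.0286). The nearer junction was thus higher in Mapk8ip1 and lower in Clstn1 and Kidins220, but the Mapk8ip1 event matched no cassette exon. In the cassette exon events of Clstn1 and Kidins220 inclusion was lower, while in that of Grip1, given next, it was higher.

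Spag9, the scaffold JIP4, had a junction at a log2 fold of 1.36 (p = 0.0436) and its longest one at -0.12 (p = 0.0234) in the authors' deposited table. In Grip1, which links kinesin to AMPA receptors, a cassette exon was included more. The log2 folds in the authors' deposited table were 0.61 for the nearer and -0.62 for the farther junction (p = 0.0493). The implied inclusion went from 40.1% to 60.9%. A second Grip1 event had 3 junctions, and only its longest passed, at 0.78 (p = 0.0113) in the authors' deposited table. That junction is the nearer one of the first event, so the 2 events share it. In Gripap1, which binds Grip1, 1 of 3 junctions passed, at -0.45 (p = 0.0483) in the authors' deposited table.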

How the data were processed

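RNA from 5 samples (3 mock, 2 knockdown) was sequenced. The submitters' processing notes name TopHat2 2.0.4 and mm10. No source used here gives the counting of junctions, the test, its filters or any pooling. For 1402 junctions in 585 events the authors deposited, per the file headers, a p-value (taken as unadjusted) and a log2 fold (knockdown over control). The table holds no counts, so depth and precision per sample are unknown, and the design's tests for counts were not used. An adjustment over a list that appears selected by p was not made. In all 408 events with 2 junctions both p-values are equal (relative tolerance 1e-06) and the folds have opposite signs, and all 177 larger events have both signs, which is why folds are read as relative use.

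Introns run from start + 1 to end + 1. With that reading, 1179 junctions (84.1%) equal a GENCODE M21 intron. An event's change is the nearer junction's log2 fold minus the farther one's. Shares follow from the folds if shares add up to 100%, and for larger events were bounded by linear programming (scipy 1.17.1). The share calculation was run on simulated shares without noise, which checks its algebra alone and not the assumption that shares add up to 100%. The members and lists were chosen with earlier results of these data known. Of the 457 gene symbols, 43 were matched to current ones as synonyms in RefSeq's gene table for GRCm38 (used for names only), and 3 of these are on a list. All events of the 6 genes, and every other gene of the motor and adaptor list with an event, are named. Alternatives covered the measure of change, the side of the exon and which events are counted.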

Additional observations from a re-analysis of the deposited data

How the results depend on the processing

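The count of motor subunit events with the nearer junction lower, 4 of 8, was 3 of 5 with each exon once, 3 of 7 with annotated junctions alone and 3 of 5 with 1 event per gene. It was 0 of 2 with p under 0.01, where only the Kif2a events are left, and 2 of 4 with a change of at least 1 on the log2 scale, since fewer events are counted. The wider motor and adaptor list had 8 such events, and 4 without the 6 genes. The larger fold alone and the implied share gave the same direction in all 8 events, as they must when the 2 folds of an event have opposite signs, so these alternatives say nothing about stability. The 3 exons listed from both sides (Kif2a, Dync1i1 and Kifap3) had the same direction from either side, but both readings share the skipping junction, which goes far to fix it. No paired analysis was possible because the table has no value per sample, and for the same reason leaving out replicates, other normalizations and filters on counts were not run. Depth per event is unknown, so rare junctions such as those of Dync1i2 and Kif1a cannot be given a precision.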

Other observations

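Of 51 genes of a list of proteins that bind or regulate microtubules, 11 had an event in the table used here, in 15 events. Of their 11 events with 2 junctions, 4 had the nearer junction lower and 7 had it higher, beside 57.1% lower over all 408 events. The 11 events come from 7 genes, and 3 exons, in Dclk1, Clasp2 and Map4, are counted from both sides. The genes of the 4 events are named after their values were seen. In the 7 others the log2 change of the ratio was 1.03 and 0.83 in Dclk1 and 0.81 and 0.64 in Clasp2. It was 1.71 in Macf1, 0.97 in Dclk2 and 0.55 in another event of Map4.

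Map4, a microtubule-associated protein listed under its older symbol Mtap4, had an exon that was included less. In the authors' deposited table its inclusion junctions stood at a log2 fold of -0.48 from either side, and skipping at 0.49 (p = 0.000408) and 0.45 (p = 0.000846). In Map6, which stabilises microtubules and is listed as Mtap6, the inclusion junction was at -0.09 and the skipping junction at 0.94 in the authors' deposited table (p = 0.0460). In Mark3, a kinase of microtubule-associated proteins, the inclusion junction stood at a log2 fold of -0.64 and the skipping junction at 0.18 in the authors' deposited table (p = 0.0203).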
